A study of Mus musculus with 6 samples.

Results

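The genes examined here encode the machinery that joins and divides mitochondria, and they were compared between hippocampal libraries labelled as from mice given methamphetamine (MA) and from mice given saline (Control). Members were the rows whose gene symbol was Mfn1, Mfn2, Opa1, Dnm1l, Fis1, Mff, Mief1, Mief2, Oma1 or Yme1l1. Each of the 10 symbols had 1 row, out of 16060 rows in the deposited table. Mitochondria form a network that is kept in balance by fusion, which merges the outer and then the inner membranes of neighbouring organelles, and fission, which pinches an organelle into smaller ones. In neurons, fission yields mitochondria small enough to be carried along axons and dendrites, and fusion lets them share contents and keeps their cristae intact. Both are controlled to a large extent after transcription, by cleavage, phosphorylation and recruitment of the proteins, which RNA levels do not measure.

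Adult male C57BL/6 mice were given escalating intraperitoneal doses of MA, and anxiety-like behavior and mitochondrial damage were looked for. The MA group received 5, 10 and 15 mg/kg in weeks 1, 2 and 3, and the Control group received saline by the same route. Behavior was tested on day 22, and RNA of the hippocampus was then sequenced in 3 libraries of each group. Each library was taken here to be from 1 mouse. No transgene or deletion is named for either group.

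Groups were taken from the deposited labels. Of the immediate early genes, which neurons switch on soon after activity, 6 were looked up after the member results were known, and each was lower with the label MA. They had log2 fold changes of -1.80 for Arc (adjusted p = 0.0181), -1.46 for Egr1 (adjusted p = 0.0181), -1.61 for Fos (adjusted p = 0.0315), -1.45 for Nr4a1 (adjusted p = 0.0244), -1.32 for Fosb (adjusted p = 0.0244) and -1.26 for Junb (adjusted p = 0.0456) in limma. Egr1 had log2 values of 6.03, 5.75 and 5.75 under the label Control and 4.48, 4.25 and 4.43 under the label MA. On the direction of these genes under MA, the deposited labels run opposite to the study's own account. Whether the labels run the right way round cannot be settled from the table, and every library and every direction below, in the captions too, is given as labelled.

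Expression was measured as RPKM, read counts scaled by gene length and library total, and the deposited values were taken to be log2 of RPKM plus 1. The log base and the added 1 were inferred from the values. No read totals were given, which leaves the depth behind each value unknown. Genes entered the test if their back-transformed RPKM reached 0.5 in 3 or more libraries. There were 13321 such genes and 10 of the 10 members were among them, the lowest single member value being an RPKM of 2.32 for Oma1. Log2 fold changes are the mean of the 3 MA libraries minus the mean of the 3 Control libraries, from limma, with p-values adjusted by Benjamini-Hochberg over the 13321 genes. For single genes, the smallest p of the exact two-sided permutation test was 0.1 with 3 libraries in each group.

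The library of MA replicate 3 stood apart from the other 5. Its quality weight in limma was 0.194, against 0.937 to 2.45 for the others, and its mean correlation with the libraries of its own group across tested genes was 0.9777, against 0.9841 and 0.9853 for MA replicates 1 and 2. Such correlations describe libraries only, as genes are not replicates. Results of members, whole lists and markers are given with and without it, and some single list genes only with it. For the gene lists, the marker lists and the counts of groups that do not overlap, this alternative was added later, with the data already seen.

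The labelled tissue was checked against marker genes. The 6 markers of hippocampal neurons were detected in every library, with a summed RPKM of 191 to 240.1 in Control and 176 to 179 in MA, and Neurod6 was the most abundant. The groups did not overlap on this sum, and 0 of the 6 genes were higher in MA, with 0 called and 2, Neurod6 and Wfs1, at an unadjusted p under 0.05 (limma). With the 6 libraries, 10.4% of all tested genes had an unadjusted p under 0.05 and 0.263% were called (limma). Markers of neighbouring tissue and of blood moved with the group as well. The summed RPKM of 5 choroid plexus genes, led by Ttr, was 63.3, 172 and 418 in Control and 1769, 2299 and 5069.8 in MA, with 5 of 5 genes higher and 3 of 5 at an adjusted p under 0.05 (limma). Nearly all of the last sum is Ttr, whose log2 value in MA replicate 3 is the maximum that every library shares, so that sum is set by this ceiling and is no exact level. The summed RPKM of 5 blood genes, led by Hba-a2, was 1599 to 2024 in Control and 3319 to 4378 in MA, again with 5 of 5 higher and 3 of 5 past the adjusted threshold. Thalamic markers, led by Prkcd, summed to 15.9 to 22 in Control and to 40.3, 48.9 and 15.5 in MA replicates 1, 2 and 3, with 4 of 4 genes higher, 0 called and 0 at an unadjusted p under 0.05 (limma). The overlap of the groups for thalamus rests on MA replicate 3. With that library left out the thalamic sums did not overlap, the median log2 fold change went from 0.58 to 1.02, and 3 of 4 thalamic genes had an unadjusted p under 0.05 with 0 called, where 23.3% of all tested genes reached that p. The hippocampal list then had 2 of 6 genes at that p and 0 called, and 4 of 5 choroid plexus and 5 of 5 blood genes passed the adjusted threshold, beside 1.93% of all tested genes. No marker in these lists was at 0 in any library. The part of these tissues in the results below was not tested, and in bulk RNA a smaller number of cells of a type and less RNA per cell cannot be told apart.

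Among the members, Fis1 RNA was the most abundant. Its mean RPKM over the 6 libraries was 206, above 97% of the tested genes. It was followed by Mff at 101, Dnm1l at 42.9, Mfn2 at 36, Mfn1 at 26.9 and Opa1 at 17.2. Yme1l1 at 13.9, Mief2 at 9.51, Mief1 at 4.52 and Oma1 at 2.95 were the least abundant, the last being above 24.1% of the tested genes. RPKM is a value per length, so these levels were set beside each other. The gene lengths behind the values and any normalization between libraries are not known, so the order holds for the deposited values only. Each member was above the next in 6 of 6 libraries, except that Yme1l1 was above Mief2 in 5 of 6. Over the 6 libraries the ranges of Dnm1l and Mfn2 overlapped, as did those of Mfn2 and Mfn1, of Opa1 and Yme1l1 and of Yme1l1 and Mief2. Genes of fission thus held both the highest and nearly the lowest places in the order, and the 3 fusion genes lay between them.

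**Figure D1:**
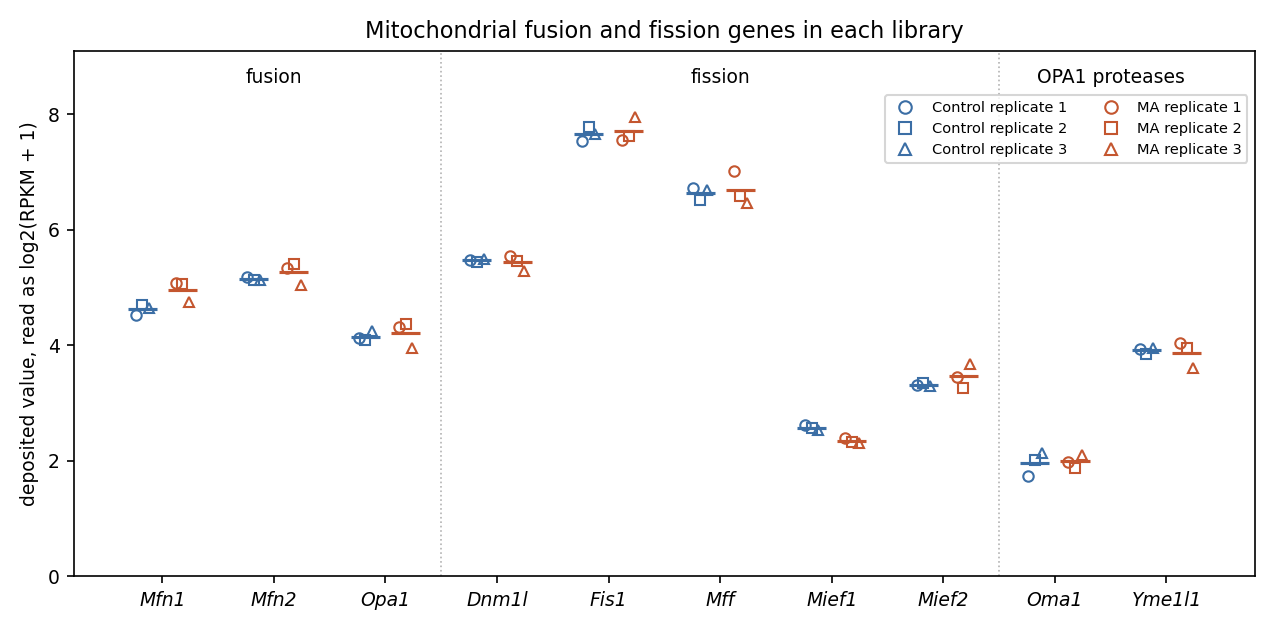
Deposited value of each member, read as log2(RPKM + 1), in each of the 6 libraries. Blue symbols are Control and orange symbols MA, the symbol shape gives the replicate number, and horizontal lines are group means (n = 3). The groups do not overlap for Mfn1, which is higher in MA, and for Mief1, which is lower in MA.

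No member passed an adjusted p under 0.05 in limma, where 0.263% of the 13321 tested genes did (35 genes, 22 higher and 13 lower with the label MA). At an unadjusted p under 0.05 there were 2 of 10 members, Mfn1 higher and Mief1 lower, beside 10.4% of all tested genes. The same 2 members were those whose groups did not overlap, beside 17.5% of all tested genes. Over the 10 members, 7 log2 fold changes were above 0 and 3 below, with a median of 0.046, and over all tested genes the median was -0.01. Member log2 fold changes lay between -0.22 and 0.34. Without MA replicate 3, 1 of 10 members (Mfn1) passed the adjusted threshold in limma, beside 1.93% of all tested genes, and 2 of 10 (Mfn1 and Mfn2) reached an unadjusted p under 0.05, beside 23.3%. The groups then did not overlap for 5 of 10 members, Mfn1, Mfn2, Opa1 and Yme1l1 being higher and Mief1 lower in MA, beside 42.9% of all tested genes.

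Of the fusion genes, Mfn1 differed most between the groups. Mfn1 (ENSMUSG00000027668) encodes mitofusin 1, a GTPase of the outer membrane that tethers mitochondria to each other and drives the merging of their outer membranes. It lies at chr3:32529465-32579239 on the plus strand (GRCm38, GENCODE M21). Its log2 values were 4.53, 4.69 and 4.64 in Control replicates 1, 2 and 3 and 5.07, 5.06 and 4.74 in MA replicates 1, 2 and 3. All 3 MA libraries were above all 3 Control libraries, and MA replicate 3 was the closest to them. In RPKM the group means were 23.6 ± 1.42 (SD, n = 3) in Control and 30.2 ± 3.88 (SD, n = 3) in MA. The log2 fold change was 0.34 with an SE of 0.11 and a 95% interval of 0.08 to 0.60, which did not pass the adjusted threshold (limma, unadjusted p = 0.0184, adjusted p = 0.363). The exact permutation p was 0.1, the smallest the design allows. Without MA replicate 3 the log2 fold change was 0.45 with an SE of 0.08, and it passed the threshold at an adjusted p of 0.0453 (limma). Sample quality weights, which give MA replicate 3 little weight, led to an adjusted p of 0.0328 (limma), with 4.4% of all tested genes called, and over all alternatives the adjusted p for Mfn1 lay between 0.0328 and 0.802. The unadjusted p was over 0.05 without Control replicate 1 (0.0668), without MA replicate 1 (0.0638) or without MA replicate 2 (0.0648) in limma.

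Mfn2 (ENSMUSG00000029020; chr4:147873599-147904704, minus strand) encodes mitofusin 2, which shares the outer membrane role of mitofusin 1 and is also present where the endoplasmic reticulum touches mitochondria. Its log2 values were 5.19, 5.13 and 5.13 in Control and 5.33, 5.41 and 5.04 in MA. MA replicates 1 and 2 were above all Control libraries, and MA replicate 3 was below all of them, so the groups overlapped. The group means were 5.15 ± 0.03 (SD, n = 3) in Control and 5.26 ± 0.19 (SD, n = 3) in MA. The log2 fold change of 0.10 (95% interval -0.15 to 0.36) had an adjusted p of 0.8 in limma. It was 0.21 without MA replicate 3, with an unadjusted p of 0.0152 and an adjusted p of 0.128 (limma), in a range of 0.109 to 0.973 over the alternatives. Leaving out MA replicate 1 gave 0.07, and leaving out MA replicate 2 gave 0.03.

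Opa1 (ENSMUSG00000038084; chr16:29579334-29654884, plus strand) encodes the dynamin-like GTPase that fuses the inner membrane and holds cristae junctions narrow. Its log2 values were 4.12, 4.09 and 4.24 in Control and 4.31, 4.36 and 3.95 in MA, the same arrangement of libraries as for Mfn2. The log2 fold change was 0.05 (95% interval -0.24 to 0.35; limma, adjusted p = 0.926). It was 0.18 without MA replicate 3 (adjusted p = 0.217) and -0.02 without MA replicate 2 (adjusted p = 0.982), and over all alternatives the adjusted p lay between 0.205 and 0.999 in limma. The sign for Opa1 thus depended on which MA library was left out.

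The fission genes gave 3 log2 fold changes above 0 and 2 below. Dnm1l (ENSMUSG00000022789; chr16:16312230-16358959, minus strand) encodes DRP1, the cytosolic GTPase that assembles around a mitochondrion and constricts it. The libraries had log2 values of 5.48, 5.44 and 5.50 in Control and 5.55, 5.46 and 5.29 in MA. MA replicate 1 was above and MA replicate 3 below all Control libraries. The log2 fold change was -0.04 with a 95% interval of -0.25 to 0.17 (limma, adjusted p = 0.919), which on the linear scale runs from 0.84-fold to 1.12-fold. The sign turned without MA replicate 3, to 0.03.

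Mief1 (ENSMUSG00000022412; chr15:80234018-80253371, plus strand) encodes MiD51, an outer membrane adaptor that recruits DRP1. In single libraries the log2 values were 2.62, 2.56 and 2.53 in Control and 2.40, 2.33 and 2.31 in MA, and all 3 MA libraries were below all 3 Control libraries. In RPKM the group means were 4.94 ± 0.198 (SD, n = 3) in Control and 4.1 ± 0.174 (SD, n = 3) in MA. The log2 fold change was -0.22 with an SE of 0.09 and a 95% interval of -0.44 to -0.01 (limma, unadjusted p = 0.0441, adjusted p = 0.464), and the exact permutation p was 0.1. MA replicate 3 lay 0.05 below the mean of the other MA libraries, the smallest such distance of the 10 members. The unadjusted p for Mief1 in limma was over 0.05 when any 1 of the 6 libraries was left out, at 0.0543 to 0.13. Its log2 fold change was -0.20 without MA replicate 3. At this low level the added 1 of the log scale shrinks a difference, and with 0.1 added in its place the log2 fold change was -0.27.

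The paralogous adaptor MiD49 is encoded by Mief2 (ENSMUSG00000018599; chr11:60728398-60732951, plus strand). Control libraries had log2 values of 3.31, 3.34 and 3.29, and MA libraries of 3.45, 3.26 and 3.68. The Control libraries lay close together, and those of MA lay on both sides of them. The log2 fold change of 0.15 (95% interval -0.13 to 0.43; limma, adjusted p = 0.719) was 0.05 without MA replicate 3 and 0.25 without MA replicate 2.

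Mff and Fis1 encode tail-anchored proteins of the outer membrane, Mff being a main receptor for DRP1. For Mff (ENSMUSG00000026150; chr1:82724890-82752394, plus strand) the log2 values were 6.72, 6.52 and 6.69 in Control and 7.01, 6.58 and 6.46 in MA. MA replicate 1 was the highest library and MA replicate 3 the lowest, which gave Mff the largest SD of any member within MA, 0.29. For Fis1 (ENSMUSG00000019054; chr5:136953275-136966234, plus strand) they were 7.54, 7.78 and 7.65 in Control and 7.55, 7.63 and 7.95 in MA, with MA replicate 3 as the highest. The log2 fold changes were 0.04 for Mff (95% interval -0.31 to 0.38) and 0.05 for Fis1 (95% interval -0.23 to 0.34), neither called in limma (adjusted p = 0.955 and 0.921). The Fis1 value was -0.07 without MA replicate 3. The Mff value was 0.15 without MA replicate 3 and -0.13 without MA replicate 1.

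The proteases Oma1 and Yme1l1 sit in the inner membrane and cut OPA1 from its long, fusion-competent forms into short ones, Oma1 mainly under stress and Yme1l1 in resting cells. The log2 values of Oma1 (ENSMUSG00000035069; chr4:103313812-103371868, plus strand) were 1.73, 2.02 and 2.13 in Control and 1.98, 1.88 and 2.10 in MA, so that the MA libraries lay within the range of Control. Those of Yme1l1 (ENSMUSG00000026775; chr2:23156369-23199260, plus strand) were 3.93, 3.85 and 3.96 in Control and 4.04, 3.96 and 3.61 in MA. The log2 fold changes were 0.03 for Oma1 (95% interval -0.29 to 0.34; adjusted p = 0.962) and -0.04 for Yme1l1 (95% interval -0.34 to 0.25; adjusted p = 0.942) in limma. They were -0.03 and 0.09 without MA replicate 3.

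**Figure D2:**
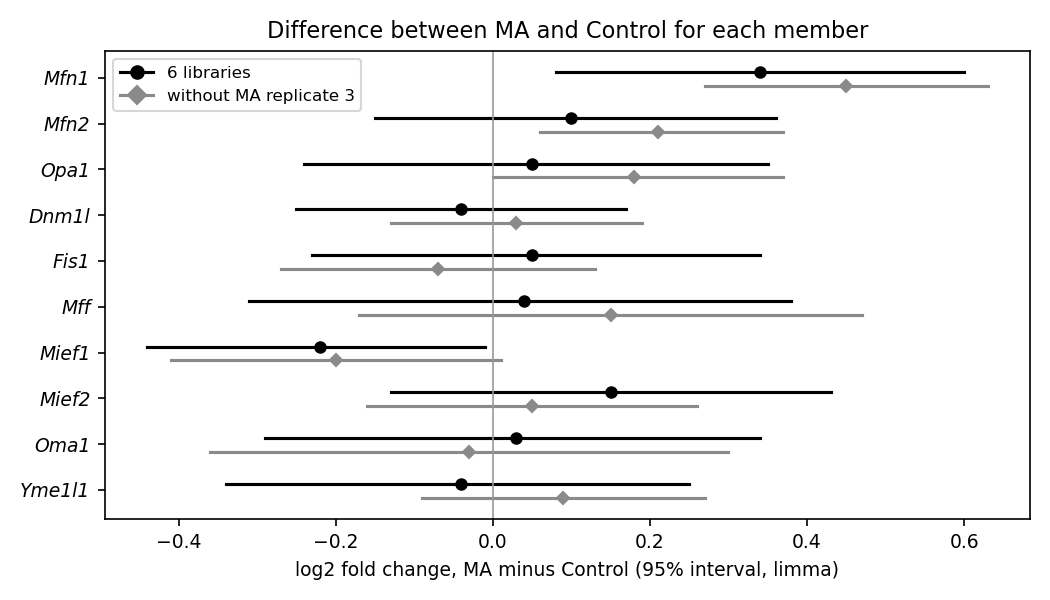
Log2 fold change of each member, MA minus Control, with its 95% interval from limma. Black circles use the 6 libraries and grey diamonds leave out MA replicate 3. The interval lies above 0 for Mfn1 in both and for Mfn2 without MA replicate 3 only, and below 0 for Mief1 with 6 libraries only.

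Fusion was set against fission in each library as the mean log2 value of Mfn1, Mfn2 and Opa1 minus that of Dnm1l, Fis1, Mff, Mief1 and Mief2. The difference was -0.52, -0.49 and -0.46 in Control replicates 1, 2 and 3 and -0.29, -0.11 and -0.56 in MA replicates 1, 2 and 3. With these members fission genes had the higher mean in every library, and the gap was smaller than in any Control library in MA replicates 1 and 2 and larger than in any in MA replicate 3. The group means were -0.49 ± 0.03 (SD, n = 3) in Control and -0.32 ± 0.23 (SD, n = 3) in MA, a difference of 0.17 that is below the SD within MA. The fusion mean was 4.64 ± 0.03 (SD, n = 3) in Control and 4.81 ± 0.20 (SD, n = 3) in MA, whereas the fission mean was 5.13 in both groups, with an SD of 0.07 in MA. No test was made of this value, as its members were chosen. Without MA replicate 3 the difference was 0.29, and without MA replicate 2 it was 0.06. With Mfn2 and Opa1 alone against Dnm1l the libraries were at -0.82, -0.82 and -0.81 in Control and -0.73, -0.57 and -0.80 in MA. On this set, unlike the others, the groups did not overlap, with MA replicate 3 next to the highest Control library. With Yme1l1 counted with fusion and Oma1 with fission they were at -0.12, -0.17 and -0.14 in Control and 0.03, 0.17 and -0.30 in MA, so that fusion genes had the higher mean in MA replicates 1 and 2.

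**Figure D3:**
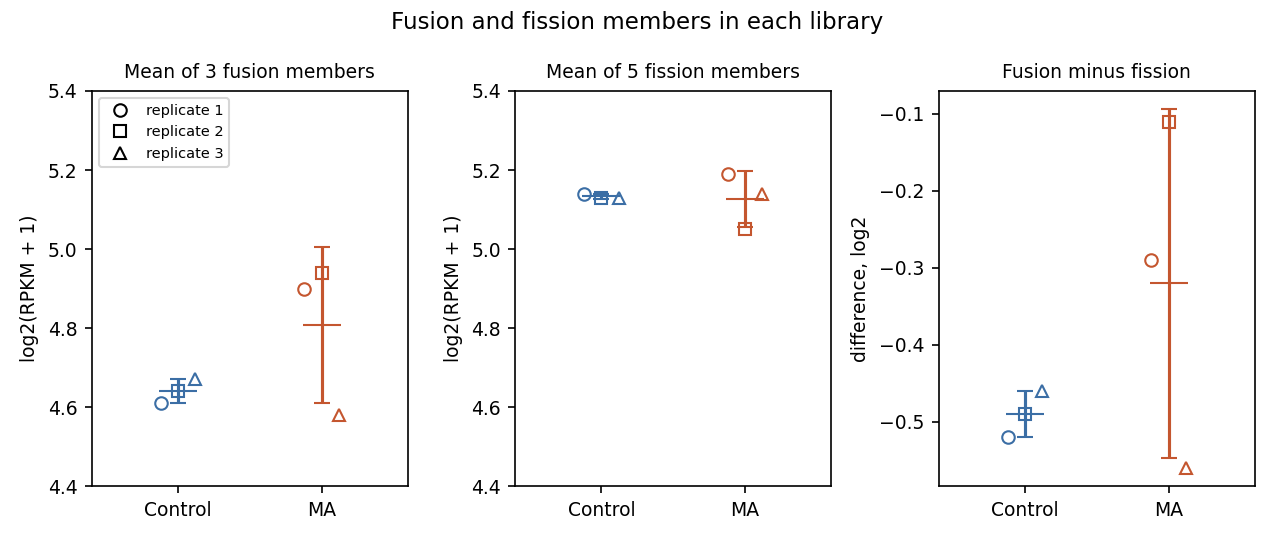
Mean log2 value of the 3 fusion members (left), of the 5 fission members (middle) and their difference (right) in each library. Bars are the group mean and SD (n = 3), and symbol shape gives the replicate. The difference is -0.11 in MA replicate 2 and -0.56 in MA replicate 3, on opposite sides of the Control libraries.

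MA replicate 3 differed from the other MA libraries in members of each role, and in many other genes. Against the mean of MA replicates 1 and 2, this library was lower for Mief1 (-0.05), Dnm1l (-0.21), Mfn1 (-0.32), Mfn2 (-0.33), Mff (-0.34), Opa1 (-0.39) and Yme1l1 (-0.39). It was higher for Oma1 (0.17), Mief2 (0.32) and Fis1 (0.36). Those that were lower took in the 3 fusion genes and 3 of the 5 fission genes. The distance was over 0.25 in either direction for 7 of 10 members, beside 46.2% of 13309 tested genes with an annotated exonic length (GENCODE M21). Across these genes, the same quantity had a median of 0.196 in the shortest of 5 equal groups of genes (205 to 2493 bases) and of -0.186 in the longest (7777 to 41155 bases), with a Spearman correlation with length of -0.358 across genes. Fis1 at 1714 bases and Oma1 at 2144 bases were in the shortest group, and Opa1, Yme1l1, Mief1 and Mff, at 7875 to 9757 bases, in the longest. Not all members followed their group, as Mief1 was at -0.05 in the longest. Mief2 (2716 bases) was at 0.32 in group 2, whose median was 0.055, Mfn2 (5194 bases) and Dnm1l (5203 bases) at -0.33 and -0.21 in group 3, at -0.034, and Mfn1 (6114 bases) at -0.32 in group 4, at -0.082. Summed neuron markers, led by Snap25, were also lowest in this library, at an RPKM of 1263 against 1765 and 1770 in the other MA libraries and 1536 to 1706 in Control. With it left out, 4 of 4 neuron markers were higher in MA (median log2 fold change 0.17, against -0.01 with it), 2 at an unadjusted p under 0.05, beside 23.3% of all tested genes, and 0 called. The part of length and of these markers in the member values was not tested.

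Other cell types bear on a bulk value as well. The summed RPKM of 5 astrocyte markers, led by Gfap, was 309 to 336 in Control and 349, 303 and 246 in MA replicates 1, 2 and 3, with 4 of 5 genes lower in MA and Slc1a3 level with Control at a log2 fold change of 0.00. In that list 0 were called and 1, Aqp4, had an unadjusted p under 0.05 (-0.36, limma), which 10.4% of all tested genes reached with the 6 libraries. That of 4 endothelial markers, led by Cldn5, was 46.4 to 48.9 in Control and 52.3 to 64 in MA, with 4 of 4 genes higher, 0 called and 1, Cldn5, at an unadjusted p under 0.05. For 5 microglial markers, led by Csf1r, it was 62.8 to 67.1 in Control and 57.8 to 62.7 in MA, and for 5 oligodendrocyte markers, led by Mbp, it was 2472 to 2657 and 2287 to 2804, and in both lists 1 gene was higher and 4 were lower in MA, 0 were called and 0 were at an unadjusted p under 0.05. Leaving out MA replicate 3 gave 1 of 5 astrocyte (Slc1a3), 3 of 4 endothelial, 2 of 5 microglial and 3 of 5 oligodendrocyte genes at an unadjusted p under 0.05, beside 23.3% of all tested genes, and 0 called. Sums that did not overlap between the groups, as Mfn1 and Mief1 did not, were those of choroid plexus, blood, hippocampal neurons, endothelium and microglia, the largest distances being those of choroid plexus and blood. Their part in the member values was not tested.

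The other genes of the pathway were taken from lists of 63 genes, of which 59 had a row and 56 were tested. None of the 56 passed an adjusted p under 0.05 in limma, 3 reached an unadjusted p under 0.05, beside 10.4% of all tested genes, and the 3 were higher in MA. The median log2 fold change was 0.009, beside -0.01 over all tested genes, with 29 genes above 0 and 27 below. Without MA replicate 3 the median was 0.057, and 11 higher and 3 lower genes reached an unadjusted p under 0.05, beside 23.3% of all tested genes in that fit. Of these 1, Snph, passed the adjusted threshold, beside 1.93%. Afg3l1, Spg7, Micos13 and Marchf5 were not analysed here, and Mtfr2, Pld6 and Mgarp were too low to be tested.

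The 3 pathway genes at an unadjusted p under 0.05 with the 6 libraries came from the lists of fission regulators and of transport. Mtfp1, an inner membrane protein that promotes fission, had log2 values of 6.48, 6.51 and 6.47 in Control and 6.63, 6.75 and 6.73 in MA. Its groups did not overlap, and its log2 fold change was 0.22 with an SE of 0.07 (limma, unadjusted p = 0.0164, adjusted p = 0.351) and 0.21 without MA replicate 3. Snph encodes syntaphilin, which docks axonal mitochondria on microtubules and holds them still. Its log2 values were 5.67, 5.85 and 5.88 in Control and 6.27, 6.42 and 5.93 in MA, a log2 fold change of 0.40 with an SE of 0.13 (limma, unadjusted p = 0.0177, adjusted p = 0.36). As for Mfn1, MA replicate 3 was the MA library nearest to Control, and without it the log2 fold change was 0.54 with an adjusted p of 0.0423 (limma). Over all alternatives the adjusted p for Snph lay between 0.0261 and 0.8. Gdap1l1, a relative of the fission factor Gdap1 that was named after its values were seen, had a log2 fold change of 0.21 with an SE of 0.08 (limma, unadjusted p = 0.0395, adjusted p = 0.452).

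By list, 13 fission regulators and dynamins had 8 log2 fold changes above 0 and a median of 0.017. The most abundant was Dnm1, the neuronal dynamin of synaptic vesicle recycling, at a mean RPKM of 708 and a log2 fold change of 0.09. Akap1, which anchors protein kinase A on the outer membrane, had the smallest p of the lower genes (-0.11, adjusted p = 0.797, limma). The log2 fold changes of Dnm1 and Akap1 were 0.15 and -0.06 without MA replicate 3. The 9 genes of mitochondrial transport had a median of -0.025, and Armcx3 had the smallest p of those that were lower (-0.08, adjusted p = 0.798, limma). Armcx3 was at -0.03 without MA replicate 3. In these lists 6 and 2 genes had an unadjusted p under 0.05 without MA replicate 3, where 23.3% of all tested genes did, against 2 and 1 with it, where 10.4% did. The medians without it were 0.144 and 0.058, beside -0.008 over all tested genes.

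The inner membrane lists held 0 genes at an unadjusted p under 0.05 in limma, where 10.4% of all tested genes did. They held 2 and 3 such genes without MA replicate 3, where 23.3% did. Of the 8 tested genes that process OPA1 or scaffold the inner membrane, 4 were above 0 and 4 below, with a median of -0.002 that was 0.02 without MA replicate 3. Stoml2, a prohibitin-related scaffold and the most abundant of them, had a log2 fold change of 0.14 (limma, adjusted p = 0.641). Opa3, in which mutations cause an inherited optic atrophy, had one of -0.17 (limma, adjusted p = 0.619). Leaving out MA replicate 3 gave 0.08 for Stoml2 and -0.23 for Opa3. The 11 tested genes of the MICOS complex, which shapes cristae junctions, and of its outer membrane partners had a median of 0.018, and of 0.03 without that library. Micos10, listed under its older symbol Minos1, is a core subunit and was the most abundant, with log2 values of 7.65, 7.67 and 7.39 in Control and 7.10, 7.24 and 7.60 in MA and a log2 fold change of -0.25 (adjusted p = 0.603, limma). It was -0.40 without MA replicate 3 (adjusted p = 0.0908, in a range of 0.0775 to 0.924 over the alternatives). Mtx1, a metaxin of the outer membrane, had a log2 fold change of 0.27 (adjusted p = 0.481, limma).

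The outer membrane and contact lists likewise held 0 genes at an unadjusted p under 0.05 in limma, where 10.4% of all tested genes did. They held 1 and 0 such genes without MA replicate 3, where 23.3% did. The 8 tested outer membrane regulators, channels and import receptors had a median log2 fold change of -0.003, which was 0.07 without MA replicate 3. Fkbp8 was the most abundant of them, at a mean RPKM of 260 and a log2 fold change of 0.07. Usp30, a deubiquitinase that opposes the removal of mitochondria by mitophagy, was at 0.14 (limma, adjusted p = 0.643). Mul1, a ubiquitin ligase with mitofusins among its targets, was at -0.12 (limma, adjusted p = 0.819). Leaving out MA replicate 3 gave 0.19 for Usp30 and 0.0 for Mul1, so the lower value of Mul1 rested on that library. The 7 genes of contacts between the endoplasmic reticulum and mitochondria had a median of -0.027, which was 0.001 without it. They included Vapa, the most abundant, at -0.03, and Rmdn3, which binds VAP proteins from the mitochondrial side, at -0.11 (adjusted p = 0.69).

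Mfn2, Opa1 and Dnm1l are the members with qPCR primers in the study. Genes of the most similar profile were those with the smallest root mean square difference of centred log2 values over the 6 libraries, among tested genes outside the lists. For Mfn2 these were Arhgef17 (0.0107) and Arhgef4 (0.021), both with MA replicate 2 highest and MA replicate 3 lowest. For Opa1 they were Gnl3l (0.0165) and Mapk8ip2 (0.0193), and for Dnm1l they were Qser1 (0.0042) and Slc13a5 (0.0117). None of these 6 genes was called in limma (adjusted p = 0.776 to 0.942). That follows from the choice, as they were picked to match members that were not called, and it is no separate result.

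These qPCR primers are printed 5′ to 3′ to show which transcripts of the members such an assay can detect.
Mfn2 forward: agaactggacccggttacca
Mfn2 reverse: cacttcgctgatacccctga
Opa1 forward: tggaaaatggttcgagagtcag
Opa1 reverse: cattccgtctctaggttaaagcg
Drp1 (Dnm1l) forward: caggaattgttacggttccctaa
Drp1 (Dnm1l) reverse: cctgaattaacttgtcccgtga
In the transcripts of GENCODE M21, both Mfn2 primers matched exactly in 6 of 7 annotated Mfn2 transcripts, with an amplicon of 82 bases inside exon 5 of Mfn2-201 (chr4:147894601-147894682, GRCm38). Both Opa1 primers matched in 5 of 8 transcripts, with an amplicon of 77 bases across exons 18 and 19 of Opa1-201 (chr16:29615116-29615934). For Dnm1l both matched in 2 of 7 transcripts, with an amplicon of 253 bases across exons 10 to 14 of Dnm1l-204 (chr16:16318468-16323624), the forward primer matching in 5 of 7 and the reverse primer in 2 of 7. All 3 amplicons lay in coding sequence, and 0 other genes held both primers of a pair. A gene-level RPKM sums over transcripts, so it need not follow an amplicon that is in some of them.

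Parts of 3 members share bases with exons of another annotated gene. Dnm1l shares 243 of its 5203 exonic bases with Gm49521 and Mff 195 of its 9757 with C430014B12Rik, both on the opposite strand, and Mief1 shares 213 of its 8106 with a small coding gene, AC140267.1, on its own strand. Whether the authors' counts used strand is not given in the sources used here, so reads from those bases cannot be told apart.

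Promoters of the members were searched for short motifs on both strands. The RefSeq promoter windows (GRCm38.p6, 250 bases before to 50 after each start) held 15 windows for the 10 members. The ETS core CCGGAAGT was found in 4 of the 15 windows, of Mfn1 (higher in MA), Mief1 (lower in MA) and Fis1, and in 3.89% of 32851 windows of the same length. The NRF1 core GCGCANGCG was found in 2 of the 15, of Opa1 and Oma1, and in 6.25% of all windows. GGGGCGGGG, the SP1 core, was found in 5 of 15, of Fis1, Mief2, Oma1 and Yme1l1, and in 11.4% of all, and the E-box CACGTG in 1 of 15, of Mief2, and in 7.15% of all. TGACGTCA and TCAAGGTCA were found in 0 of 15 and in 1.79% and 0.423% of all windows. The stretches below carry the ETS or NRF1 letters in capitals with 10 bases on each side, written along the plus strand, on which all 5 genes lie, and are shown for the matches upstream of RefSeq starts that include Mfn1 and Mief1, which lay apart between the groups, and Opa1. Matches of the SP1 core, which more members share, are not printed.
Mfn1 (chr3:32529428-32529455): atccgaagcgCCGGAAGTagccgcccct
Mief1 (chr15:80234005-80234032): gaggggccgaCCGGAAGTgcttccgcct
Fis1 (chr5:136953247-136953274): gaggcaccacCCGGAAGTtcaggcttcc
Opa1 (chr16:29579265-29579293): gtggctccccGCGCATGCGcatgtcatcc
Oma1 (chr4:103313814-103313842): gaaaggtgtgCGCCTGCGCggagccggct
The Oma1 match is on the minus strand, and in Opa1 a further match of the NRF1 letters on the minus strand overlaps the one shown. The ETS and NRF1 letters do not overlap in these windows. A match describes these letters only, and it does not show that a factor binds there.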

How the data were processed

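Hippocampal RNA in 3 Control and 3 MA libraries was analysed, grouped by sample title. The authors deposited 1 table named as RPKM, whose values were taken as log2 of RPKM plus 1. Every library had the same maximum, 12.3, a sign of a normalization between libraries that the sources used here do not describe. The study's methods name Hisat2, featureCounts and FPKM, whereas the submitters' processing notes name Bowtie 0.12.2 and the builds mm8 and mm9. The methods and the labels also name different RNA and library kits. Coordinates are those of GENCODE M21 on GRCm38, for location only.

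The deposited log2 values were fitted with limma 3.58.1 in R 4.3.3 (lmFit, eBayes with trend), MA against Control without covariates. The fit was first tested on 5 simulated tables, in each of which 200 of 13321 genes were changed by 1 log2 unit. The median was 151 changed genes recovered, with 12 false calls. Changes as small as those of the members were not simulated, so this gives no measure of power for them. Single values were also tested by exact permutation. The genes named were the 10 members and, of each other list, the most abundant gene, each gene at an adjusted p under 0.05 and the smallest p in each direction, and the 2 closest profiles for Mfn2, Opa1 and Dnm1l. Of these, 1 gene is not reported here. Members and lists were chosen with earlier results of these data known. Alternatives were median centring, quantile normalization, 0.1 in place of the added 1, no filter, a minimum mean RPKM of 5, no trend, sample quality weights, the replicate number as a block, other memberships of the fusion and fission groups, and leaving out each library. If the values were already normalized between libraries, median centring and quantile normalization can change little. They gave Mfn1 log2 fold changes of 0.337 and 0.339, against 0.338 in the main fit.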

Additional observations from a re-analysis of the deposited data

How the results depend on the processing

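The depth of the libraries is unknown, so no limit from depth can be given, and 3 libraries per group limit the precision. Members at an adjusted p under 0.05 (limma) numbered 1 with sample quality weights and 0 to 1 with a library left out. At an unadjusted p under 0.05 they numbered 1 with no filter, beside 10% of all tested genes, 1 with a minimum mean of 5, which leaves out Mief1 and Oma1, beside 9.87%, 3 with weights, beside 26.3%, and 0 to 2 with a library left out, beside 6.22% to 23.3%. Of all genes, 3 were called with no filter, 20 with a minimum mean of 5, 586 with weights and 0 to 257 with a library left out. Sample quality weights reversed the log2 fold changes of Dnm1l (0.004), Fis1 (-0.053), Oma1 (-0.057) and Yme1l1 (0.061). Leaving out a library gave -0.023 to 0.183 for Opa1, -0.101 to 0.03 for Dnm1l, -0.067 to 0.136 for Fis1, -0.127 to 0.151 for Mff, -0.087 to 0.112 for Oma1 and -0.128 to 0.088 for Yme1l1. Mfn1, Mfn2, Mief1 and Mief2 kept their sign under each alternative run (with a library left out, 0.03 to 0.212 for Mfn2 and 0.046 to 0.252 for Mief2), though Mief2 fell from 0.152 to 0.02 with sample quality weights, and the fusion minus fission difference lay between 0.06 and 0.29. The cause of these shifts was not tested.

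Leaving out MA replicate 3 was an alternative chosen after the data were seen. Groups then did not overlap for 5712 genes, 42.9% of those tested, against 2333 (17.5%) with the 6 libraries. Among the 10 members they did not overlap for 5, against 2. Groups overlap less readily with fewer libraries, so counts with this library left out are not on equal terms with those of 6 libraries. In the lists, 6 fission regulators, 2 transport genes, 2 genes of OPA1 processing, 3 MICOS genes and 1 outer membrane gene then reached an unadjusted p under 0.05, where 23.3% of all tested genes did, and 1 transport gene was called. The marker lists were also run without this library, again chosen with the data seen, and 3 of 4 thalamic genes in place of 0 then had an unadjusted p under 0.05.

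Under a replicate block, 15 genes and 0 members were called, and 1 member had an unadjusted p under 0.05, beside 6.32% of all tested genes. Deviations of same-numbered libraries correlated at -0.337 to -0.197, and 0 of 6 libraries correlated best with the same number in the other group, so the libraries were taken to share a number only.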
